A study of Mus musculus with 2 samples.

Results

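The genes of the proteasome were described in mRNA-seq values of the jejunal tunica muscularis, the muscle wall peeled from the mucosa. It came from P15 mice of both genotypes, *Dnmt1*-KO and *Dnmt1*-WT. Members were all gene symbols that consist of Psma, Psmb, Psmc, Psmd, Psme, Psmf or Psmg and a number, without the 3 immunoproteasome genes *Psmb8*, *Psmb9* and *Psmb10*. This gave 45 genes of the 18159 symbols listed, and every one of them was above 0 FPKM (fragments mapped to a transcript, scaled to its length and to the size of the library) in both libraries. In 40 of them the level was at 10 FPKM or more in both. *Dnmt1*-KO mice carry smMHC Cre-eGFP, in which the *Myh11* promoter drives Cre and eGFP, together with floxed alleles of *Dnmt1*, the enzyme that keeps CpG methylation through cell division, and *Dnmt1*-WT mice carry the same Cre-eGFP transgene. The strain label of both libraries names the floxed allele. The C57BL/6 background and the age of 15 days are common to both. The deletion is driven from a smooth muscle promoter, whereas the RNA came from the whole wall, so that fewer cells of a type and less RNA per cell cannot be told apart in these values. The study's methods give 4 mice per genotype, 2 males and 2 females, but there is 1 library per genotype here and no spread between mice. No test between genotypes was therefore possible, and every ratio below is the level in the *Dnmt1*-KO library over that in the *Dnmt1*-WT library.

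The title and genotype label of one library give *Dnmt1*-WT, although its free-text label and that of the other library both give the knockout genotype, and the title and genotype label were followed. *Dnmt1* itself was at 11.58 FPKM in *Dnmt1*-WT against 7.58 in *Dnmt1*-KO, a ratio of 0.65. The tissue label fits the markers in both libraries: the 8 smooth muscle genes listed summed to 16754.9 FPKM in *Dnmt1*-WT against 12123.5 in *Dnmt1*-KO, with all 8 lower in *Dnmt1*-KO. The FPKM of all genes summed to 1.07 times as much in *Dnmt1*-KO as in *Dnmt1*-WT, and the deposited values hold no read numbers per gene.

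The 26S proteasome degrades proteins that carry ubiquitin chains. Its 20S core is a barrel of stacked rings, with α subunits on the outside that gate the entrance and β subunits on the inside, 3 of which (β1, β2 and β5) cut peptide bonds. The 19S regulatory particle sits on the barrel, where its lid and base recognize the ubiquitin chain, remove it, and unfold the substrate with a ring of ATPases. Other caps, the 11S activators (PA28) and PA200, open the barrel without ATP. In cells exposed to interferon γ the catalytic subunits are exchanged for immunoproteasome subunits, which favour peptides for MHC class I. Muscle relies on this system to turn over contractile proteins.

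The subunits of the 20S core and the 19S particle differed little between the libraries, and among members at 10 FPKM or more those that differed most were genes of activators and of assembly chaperones. Over the 45 members the median log2 ratio was 0.05, beside 0.01 over the 16102 genes above 0 in both libraries. Above a ratio of 1 were 27 members and below it 18, beside 8106 and 7910 of those 16102 genes. The members' median turned to -0.047 when the libraries were scaled to the same sum of FPKM, to -0.041 by that sum without small RNA genes and to -0.0018 by a trimmed mean of log2 ratios. The first of these lowers every log2 ratio by 0.10 and takes ratios between 1 and 1.07 below 1. A ratio of at least 1.5 was reached by 3 members, *Psmg4*, *Psme1* and *Psma8*, while 19.7% of all genes above 0 in both libraries reached it. A ratio of at most 1/1.5 was reached by *Psme4* alone, beside 12.6% of all genes, and at 0.67 to 0.68 it no longer was with the median ratio set to 0, by upper quartile and with 1 FPKM added. Among genes at 10 FPKM or more, 2 of 40 members were at 1.5 or more against 7.96% of 5840 genes, and 1 of 40 was at 1/1.5 or less against 7.74%. At this level 24 of the 40 members were above a ratio of 1 (47.3% of all genes), and 1, *Psmg4*, was at 2 or more (2.67% of all genes). Ratios between 4/5 and 5/4 held for 31 of the 40 members and for 61.3% of all genes at this level. The SD of the log2 ratio was 0.32 across these members and 0.48 across all genes at this level. The median log2 ratio was 0.05 across these 40 members and -0.02 across the 5840 genes. At 40 FPKM or more in both libraries it was 0.12 across 31 members and 0.05 across all 1535 genes, which were thus higher as well. The order of the levels was nearly the same in both libraries (Spearman's rho 0.98 across 45 genes, given as a description, since 1 pair of libraries lies behind all points).

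**Figure D1:**
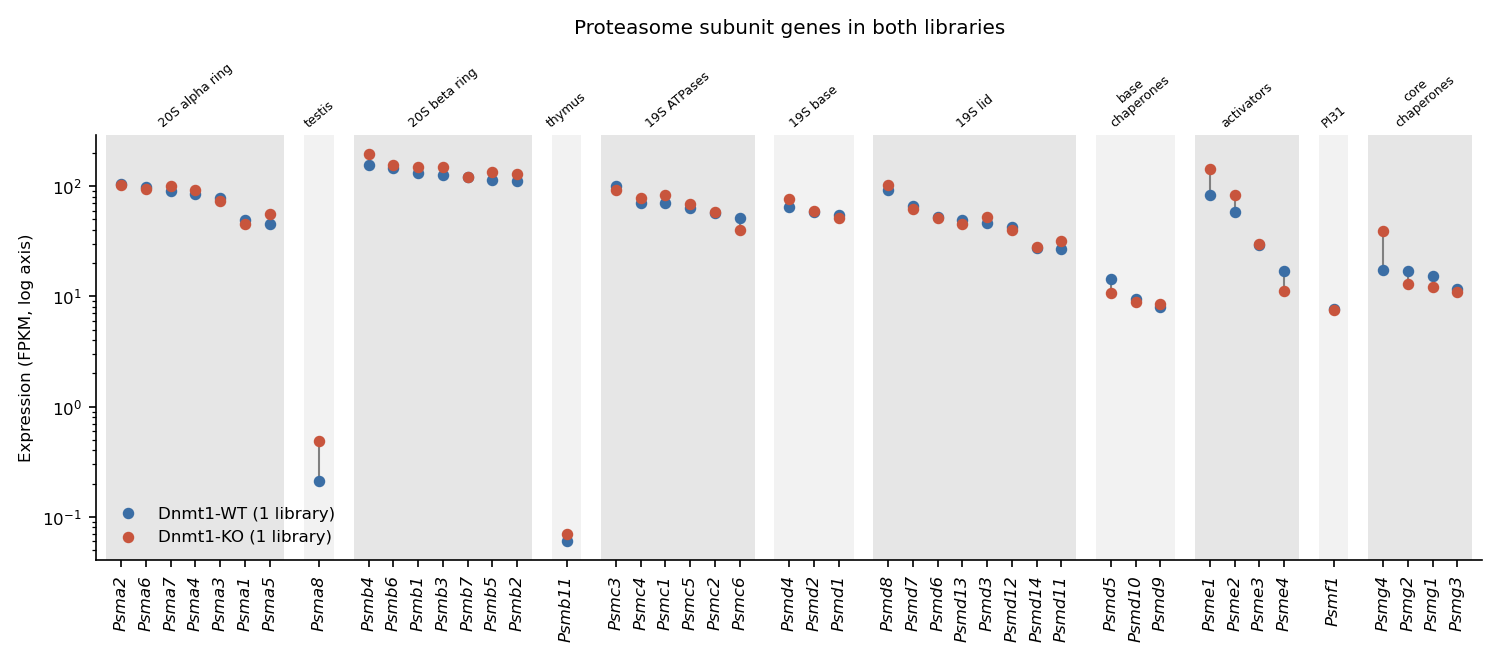
Expression (FPKM, log axis) of the 45 proteasome subunit genes in the *Dnmt1*-WT (blue) and *Dnmt1*-KO (red) library, grouped by role, with a line joining both values of a gene. The 20S and 19S subunits lie between 26.66 and 196.69 FPKM, at ratios of 0.77 (*Psmc6*) to 1.26 (*Psmb4*). The widest gaps are those of *Psma8*, at its low level, *Psmg4*, *Psme1*, *Psme4* and *Psme2*.

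The α ring was expressed at 45.04 to 103.71 FPKM in *Dnmt1*-WT against 44.95 to 103.66 in *Dnmt1*-KO. *Psma2* (α2) was the highest in both, with 103.71 FPKM in *Dnmt1*-WT against 103.66 in *Dnmt1*-KO. *Psma5* (α5) had the largest ratio of the ring, 45.04 against 56.08 FPKM or 24.5% more, and *Psma1* (α6) the smallest, 49.6 against 44.95 FPKM or 0.91. Of the 7 genes 3 were above a ratio of 1 (*Psma4*, *Psma5*, *Psma7*) and 4 below it (*Psma1*, *Psma2*, *Psma3*, *Psma6*), and their summed level was 551.74 FPKM in *Dnmt1*-WT against 564.64 in *Dnmt1*-KO. These subunits are each present in every 20S core, yet their mRNA levels spanned 2.30-fold in *Dnmt1*-WT and 2.31-fold in *Dnmt1*-KO.

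The β ring was expressed above the α ring, at 110.47 to 156.29 FPKM in *Dnmt1*-WT against 122.1 to 196.69 in *Dnmt1*-KO. All 7 of its genes were above a ratio of 1, beside 47.3% of all genes at 10 FPKM or more, with a median of 1.16. With the libraries scaled to the same sum of FPKM, 5 of 7 were so. Set against genes of like transcript length, as given below, the median was 1.02. Set against genes of like GC content it was 1.12, under the 1.18 of the α ring. *Psmb4* (β7) was the highest in both libraries, at 156.29 FPKM in *Dnmt1*-WT against 196.69 in *Dnmt1*-KO, and had the largest ratio of the ring, 1.26. The catalytic genes were at 147.17 and 156.79 FPKM for *Psmb6* (β1), 121.59 and 122.1 for *Psmb7* (β2) and 115.0 and 133.38 for *Psmb5* (β5), so that β2 barely differed while β5 was 1.16 times as high in *Dnmt1*-KO. *Psmb1* (β6) was at 131.96 and 149.82 FPKM, *Psmb2* (β4) at 110.47 and 130.04, and *Psmb3* (β3) at 125.75 and 149.15. The ratios of these 3 structural subunits were 1.14 to 1.19. The mean level of the β ring was 1.65 times that of the α ring in *Dnmt1*-WT and 1.84 times in *Dnmt1*-KO, and the summed level of the 14 core genes was 1459.97 FPKM and 1602.61 FPKM, a ratio of 1.10. With the scaling by sum of FPKM the core's ratio was 1.02.

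Of the 19S particle, the 6 ATPase genes (*Psmc1* to *Psmc6*), whose products form the ring that unfolds substrates, were at 51.97 to 100.94 FPKM in *Dnmt1*-WT against 40.16 to 93.31 in *Dnmt1*-KO. Their summed level had a ratio of 1.02. *Psmc6* (Rpt4) was the lowest of the ring in both and the only 19S gene outside 4/5 to 5/4, with 51.97 FPKM in *Dnmt1*-WT against 40.16 in *Dnmt1*-KO, a ratio of 0.77. *Psmc1* (Rpt2) lay at the other end, at 70.24 and 82.38 FPKM or a ratio of 1.17, and *Psmc3* (Rpt5), the most abundant, was at 100.94 and 93.31 FPKM. The 6 therefore differed in both directions, 4 above a ratio of 1 and 2 below it.

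The base scaffolds *Psmd1* (Rpn2) and *Psmd2* (Rpn1) were at 55.34 and 51.45 FPKM and at 57.89 and 59.87 FPKM. *Psmd4* (Rpn10), a ubiquitin receptor, was at 65.34 FPKM in *Dnmt1*-WT against 76.95 in *Dnmt1*-KO, a ratio of 1.18. In the lid, *Psmd14* (Rpn11), the deubiquitinase that cuts the chain from the substrate, was among the lowest at 27.25 and 28.09 FPKM, together with *Psmd11* (Rpn6) at 26.66 and 31.61 FPKM. *Psmd8* (Rpn12) was the highest of the lid at 92.14 and 102.76 FPKM. All 8 lid genes lay within ratios of 0.92 to 1.19. Of these, 4 were above 1 (*Psmd3*, *Psmd8*, *Psmd11*, *Psmd14*) and 4 below it (*Psmd6*, *Psmd7*, *Psmd12*, *Psmd13*). In total, 29 of the 31 constitutive 20S and 19S genes were between 4/5 and 5/4, the exceptions being *Psmb4* and *Psmc6*. None was past 1.5 in either direction. Which genes fell outside that range depended on the processing. Set against genes of like GC content, as given below, *Psmc6* was at 0.99 and *Psmb4* at 1.254. *Psma2*, *Psma5*, *Psmb1* and *Psmd11* were then at 1.27 to 1.32. Set against genes of like transcript length, *Psmb4* was at 1.09, *Psmc6* at 0.76 and *Psma1* at 0.79.

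**Figure D2:**
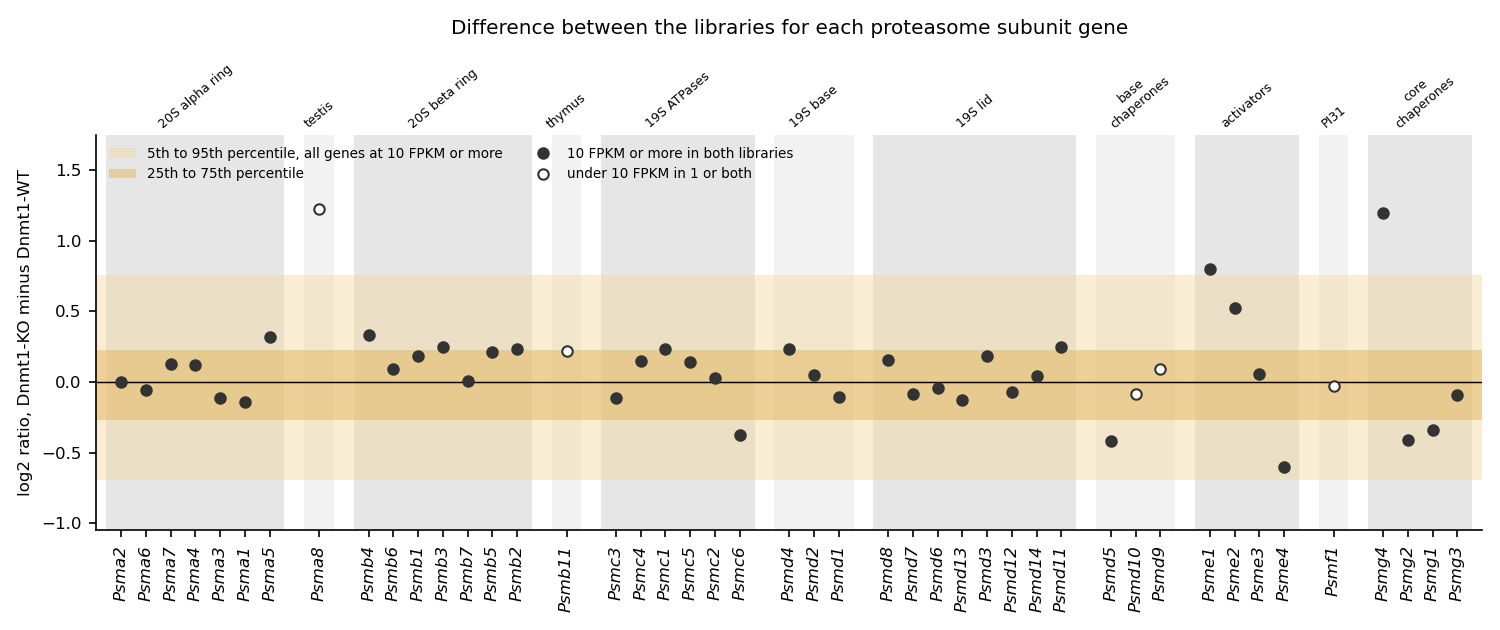
The log2 ratio (*Dnmt1*-KO minus *Dnmt1*-WT) of each of the 45 members, grouped by role, over bands of the middle 50% and 90% of the log2 ratios of 5840 genes at 10 FPKM or more in both libraries. Open circles are the 5 members under 10 FPKM in 1 library or both. *Psmg4* (1.19) and *Psme1* (0.80) lie above the wider band, as does *Psma8* (1.22) at its low level.

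The activator genes differed in both directions. *Psme1* encodes PA28α and *Psme2* PA28β, which together form the 11S cap that is induced by interferon γ. *Psme1* was at 82.69 FPKM in *Dnmt1*-WT against 144.1 in *Dnmt1*-KO, a ratio of 1.74, and *Psme2* was at 58.13 and 83.48 FPKM, a ratio of 1.44. The mean of these genes was 0.89 times that of the α ring in *Dnmt1*-WT and 1.41 times in *Dnmt1*-KO, and *Psme1* over *Psme2* was 1.42 and 1.73. *Psme3*, whose product PA28γ caps nuclear proteasomes, was at 29.02 FPKM in *Dnmt1*-WT against 30.13 in *Dnmt1*-KO. *Psme4*, which encodes PA200, went the other way, at 17.17 and 11.3 FPKM, a ratio of 0.66. *Psme1* thus stood at 4.82 times *Psme4* in *Dnmt1*-WT and at 12.8 times in *Dnmt1*-KO. *Psmf1* (PI31), an inhibitor of the core in vitro that also acts in proteasome transport, was at 7.71 and 7.57 FPKM.

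Genes for the chaperones that assemble the core differed among themselves. *Psmg1* and *Psmg2* encode PAC1 and PAC2, which work as a pair on the α ring, and *Psmg3* and *Psmg4* encode PAC3 and PAC4, the second pair. *Psmg4* was at 17.19 FPKM in *Dnmt1*-WT against 39.34 in *Dnmt1*-KO, and its ratio of 2.29 was the largest of the members at 10 FPKM or more. Its partner *Psmg3* was at 11.65 and 10.91 FPKM, a ratio of 0.94, so that *Psmg4* over *Psmg3* was 1.48 in *Dnmt1*-WT and 3.61 in *Dnmt1*-KO. *Psmg1* was at 15.42 and 12.16 FPKM, a ratio of 0.79, and *Psmg2* at 17.08 and 12.83 FPKM, a ratio of 0.75. The members of this pair were close to each other in both libraries, with *Psmg1* over *Psmg2* at 0.90 and 0.95. Among the chaperones of the 19S base, *Psmd5* (S5b) was at 14.23 and 10.67 FPKM, a ratio of 0.75. *Psmd10* (gankyrin) was at 9.47 and 8.94 FPKM and *Psmd9* (p27) at 7.93 and 8.44 FPKM, both within 4/5 to 5/4. *Pomp*, a core assembly factor outside the symbol rule, was at 85.93 FPKM in *Dnmt1*-WT against 116.04 in *Dnmt1*-KO, a ratio of 1.35.

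The remaining members are tissue-restricted forms. *Psma8*, the α4 form of the testis, was at 0.21 FPKM in *Dnmt1*-WT against 0.49 in *Dnmt1*-KO, and *Psmb11*, the β5 form of the thymic cortex, at 0.06 and 0.07 FPKM. Both were far below the next member, *Psmf1*, and *Psmb11* was close to the lowest value above 0 in the table, 0.03 FPKM. The ratio of 2.33 for *Psma8* rests on these low levels. Of the 4 germ cell markers listed (*Ddx4*, *Dazl*, *Sycp3*, *Prm1*), none was above 0.81 FPKM, *Ddx4* and *Prm1* were listed at 0 in *Dnmt1*-KO, and *Dazl* was listed at 0 in *Dnmt1*-WT and at 0.08 FPKM in *Dnmt1*-KO.

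The immunoproteasome genes are no members but encode the alternatives to 3 of them at the catalytic sites. At the β5 site, *Psmb5* was at 115.0 and 133.38 FPKM, and *Psmb8* at 5.87 FPKM in *Dnmt1*-WT against 43.13 in *Dnmt1*-KO. At the β1 site, *Psmb6* was at 147.17 and 156.79 FPKM, and *Psmb9* at 3.43 and 18.98 FPKM. At the β2 site, *Psmb7* was at 121.59 and 122.1 FPKM, and *Psmb10* at 31.05 and 76.18 FPKM. The constitutive genes thus were at ratios of 1.16 or less while their alternatives were at 5.53 to 7.35 for *Psmb9* and *Psmb8* and at 2.45 for *Psmb10*. The alternatives took 4.86% of the FPKM at the β5 site in *Dnmt1*-WT and 24.4% in *Dnmt1*-KO, 2.28% and 10.8% at the β1 site, and 20.3% and 38.4% at the β2 site. Over all 3 sites this was 9.51% and 25.1%, and immunoproteasome over constitutive level was 3.19 times as high in *Dnmt1*-KO. The constitutive genes kept the larger share at every site in both libraries. The 3 immunoproteasome genes were among those the study picked on these same libraries, so their direction is no independent evidence.

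**Figure D3:**
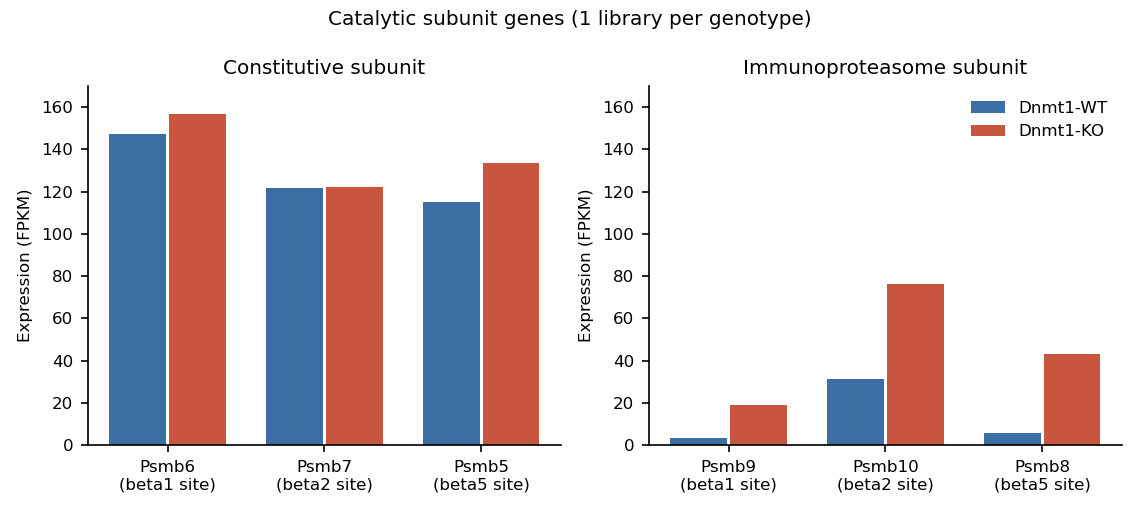
Expression (FPKM, from 0) of the genes for the constitutive catalytic subunits (left) and their immunoproteasome alternatives (right) in the *Dnmt1*-WT (blue) and *Dnmt1*-KO (red) library. The constitutive genes are at 115.0 to 156.79 FPKM in both libraries, and the alternatives at 3.43 to 31.05 FPKM in *Dnmt1*-WT and 18.98 to 76.18 FPKM in *Dnmt1*-KO.

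Other genes of interferon and antigen presentation were higher together with *Psme1*, *Psme2* and the immunoproteasome. All 11 interferon response genes listed were at a ratio of 1.5 or more, beside 19.7% of all genes above 0 in both libraries, with a summed level of 76.82 FPKM in *Dnmt1*-WT against 200.3 in *Dnmt1*-KO. Among them *Nlrc5*, an activator of MHC class I genes, was at 0.12 and 1.54 FPKM. Of 10 genes of MHC class I loading 6 were at 1.5 or more, beside the same 19.7%, including the peptide transporter *Tap1* at 3.06 and 13.65 FPKM and *B2m* at 415.79 and 1561.3 FPKM, while *Tap2* and *Tapbp* were just at the limit and fell under it by sum of FPKM or by the trimmed mean, and the general chaperones *Calr*, *Canx* and *Pdia3* and the peptidase *Erap1* were at 0.95 to 0.99. Markers of other cells were higher as well. All 8 leukocyte markers were higher in *Dnmt1*-KO (summed level 28.7 and 93.57 FPKM; *Ptprc*, which encodes CD45, 0.8 and 2.71 FPKM; *Cytip* at 0 in *Dnmt1*-WT), as were all 8 macrophage markers (142.34 and 500.6 FPKM), all 4 endothelial markers (36.41 and 83.77 FPKM) and all 4 adipocyte markers (3.17 and 108.52 FPKM; *Lep* at 0 in *Dnmt1*-WT). The 5 T cell markers summed to 0.42 and 3.91 FPKM, with *Cd3e*, *Cd3d* and *Cd8a* at 0 in *Dnmt1*-WT. Most of these low sums was *Cd4*, at 0.29 and 2.37 FPKM, and each other T cell marker was at 0.62 FPKM or less. All 4 dendritic cell markers were higher (2.07 and 4.93 FPKM; *Xcr1* at 0 in *Dnmt1*-WT), and so were 3 of 4 epithelial markers (22.82 and 34.81 FPKM). Enteric neuron markers summed to 313.7 and 373.14 FPKM and enteric glia markers to 59.23 and 88.93 FPKM, each with 3 of 4 higher. The part of any of these cells in the levels of *Psme1*, *Psme2* and the immunoproteasome genes was not tested.

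Genes that act with the proteasome were measured as a further comparison. Of 15 genes for associated proteins 14 were in the table, 5 above a ratio of 1 and 9 below it. Of the 16102 genes above 0 in both libraries, 8106 were above 1 and 7910 below it. *Adrm1* (Rpn13, a ubiquitin receptor of the base) was at 50.8 FPKM in *Dnmt1*-WT against 67.41 in *Dnmt1*-KO, a ratio of 1.33. *Shfm1* (Sem1, a small lid subunit) was at 326.91 and 414.88 FPKM, a ratio of 1.27. *AI314180* (Ecm29, which tethers the 19S particle to the core) was at 21.76 and 12.57 FPKM, and its ratio of 0.58 was the only one of the 14 past 1.5 in either direction. The deubiquitinases *Usp14* and *Uchl5* were at ratios of 0.88 and 0.81. Thus the subunits *Adrm1* and *Shfm1* had ratios slightly above the members' middle 50%, which ran from 0.94 to 1.17, and Ecm29 lay well below it.

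*Nfe2l1*, which encodes the transcription factor that raises proteasome genes when proteasome activity is short, was at 48.48 and 50.58 FPKM. *Ddi2*, the protease that releases this factor, was at 9.43 and 11.38 FPKM, and *Ngly1*, which removes its glycans, at 8.81 and 6.4 FPKM. The NF-Y genes *Nfya*, *Nfyb* and *Nfyc*, whose product binds CCAAT boxes, were all below a ratio of 1, at 0.77 to 0.90, and *Nfe2l2* was at 0.98. Of genes for ubiquitin itself, *Ubb*, which encodes ubiquitin repeats, was at a ratio of 0.99, and *Rps27a*, which encodes ubiquitin fused to a ribosomal protein, at 1.36. *Vcp*, the segregase that delivers substrates, and its 3 cofactors *Ufd1l*, *Nploc4* and *Nsfl1c* were at 0.97 to 1.07.

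Other multisubunit complexes gave a yardstick for the spread of the members. The COP9 signalosome, whose subunits are related to those of the 19S lid, had a median log2 ratio of 0.08 with 7 of 9 genes between 4/5 and 5/4. The translation factor eIF3 had a median of 0.09 with 13 of 13 in that range, and the chaperonin TRiC a median of -0.06 with 8 of 8. The 20S core had a median of 0.13 with 13 of 14 in that range, and the 19S particle a median of 0.04 with 16 of 17. The SD of the log2 ratio was 0.15 for the 20S core and 0.17 for the 19S particle, beside 0.25 for the COP9 signalosome, 0.16 for eIF3 and 0.14 for TRiC. The 20S and 19S genes were therefore spread about as the subunits of eIF3 and TRiC were. The 14 members outside them were spread more widely, with an SD of 0.58. Those 14 were lower expressed, with a median of 14.8 FPKM in *Dnmt1*-WT against 70.2 for the 20S and 19S genes. They include *Psma8* and *Psmb11* at their low levels. Over all genes above 0 in both libraries the SD was 0.92.

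**Figure D4:**
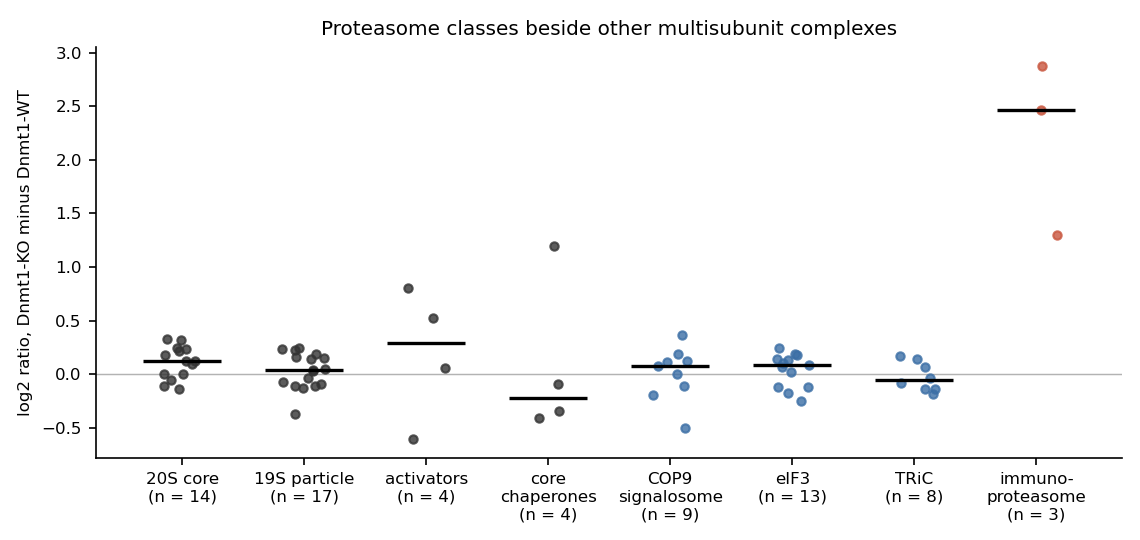
The log2 ratio (*Dnmt1*-KO minus *Dnmt1*-WT) of each gene, as points, and the median, as a bar, for 4 classes of members (black), 3 other complexes (blue) and the immunoproteasome (red). The medians of the 20S core (0.13), the 19S particle (0.04), the COP9 signalosome (0.08), eIF3 (0.09) and TRiC (-0.06) lie close together, and the immunoproteasome median is 2.47.

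The ratio between the libraries was related to transcript length and GC content over all genes, and the proteasome classes differ in both. Of 5579 genes at 10 FPKM or more with a length, divided into 10 equal bins, those with the shortest transcripts had a median log2 ratio of 0.25 and those with the longest -0.24. By GC content the medians ran from -0.27 in the lowest bin to 0.13 in the highest. Spearman's rho between length and log2 ratio was -0.35 across these genes and -0.42 across the 40 members, and between GC content and log2 ratio 0.31 and 0.50, all from the same pair of libraries. β ring transcripts had a median length of 899 nt and a GC content of 52.2%, and α ring transcripts 1201 nt and 45%. *Psmg4* had the shortest transcript of the members, with 555 nt and 55.1% GC, and *Psme4* the longest, with 6491 nt and 43.9% GC.

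Centred on genes of like length, the β ring had a median ratio of 1.02 with 5 of 7 genes above 1, and the α ring 0.94 with 2 of 7. Centred on genes of like GC content, the β ring was at 1.12 with 6 of 7 above 1, and the α ring at 1.18 with 7 of 7, so that the order of the rings turned. *Psmg4* was at 1.98 after centring on length and 2.11 after centring on GC content, and *Psme1* at 1.51 and 1.61. *Psme2* was at 1.24 and 1.36. *Psmg4* and *Psme1* therefore stayed past 1.5 under both, whereas *Psme4* was at 0.74 and 0.77 and no longer past 1/1.5. *Psmg1* was at 0.68 and 0.79, and *Psmg2* at 0.65 and 0.82, *Psmg2* passing 1/1.5 when centred on length. The choice of centring was made after these data were seen, and whether length and GC content set the ratios was not tested.

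**Figure D5:**
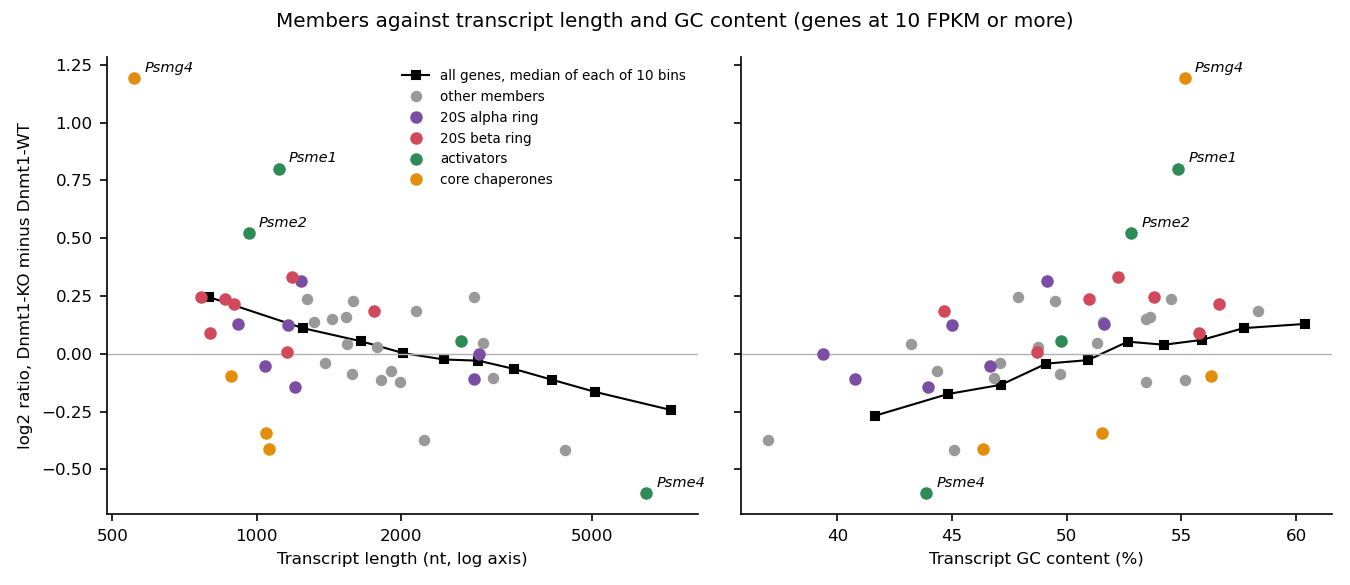
The log2 ratio (*Dnmt1*-KO minus *Dnmt1*-WT) of the 40 members at 10 FPKM or more against transcript length (nt, log axis, left) and GC content (%, right), with the median of all genes in each of 10 bins (black line). The all-gene median runs from 0.25 to -0.24 with length and from -0.27 to 0.13 with GC content, and *Psmg4* and *Psme1* lie above the line in both panels.

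Promoter windows of 250 bases before to 50 bases after the start site were at hand from RefSeq (GRCm38.p6) for 37 of the 45 members. *Psma8*, *Psmb1*, *Psmb2*, *Psmb7*, *Psmc3*, *Psmd3*, *Psmd7* and *Psmg2* had none. They were searched on both strands for letters bound by known regulators of these genes. TGACNNNGC, the core letters of sites of the NFE2L factors with small MAF proteins, was in the windows of 6 members (16.2%), beside 14.0% of all genes and 17.9% of genes at 10 FPKM or more. CCAAT was in 13 (35.1%), beside 41.1% and 42.4%, and TTCNNNGAA, the core of sites of STAT factors, in 2 (5.41%), beside 9.55% and 7.33%. Thus none of these letters was more common in the members than in genes of their level. GAAANNGAA, which lies within sites of interferon regulatory factors, was in 7 members (18.9%), beside 9.76% of all genes and 8.14% of genes at 10 FPKM or more. Those 7 were *Psmb3* (ratio 1.19), *Psmb4* (1.26), *Psmc2* (1.02), *Psmd4* (1.18), *Psmd9* (1.06), *Psme1* (1.74) and *Psmg4* (2.29). Both members past 1.5 at 10 FPKM or more, *Psme1* and *Psmg4*, held these letters within 24 bases after the RefSeq start site. The other 5 members that held them had ratios of 1.02 to 1.26. For *Psme1* that start site is chr14:55578494, whereas the GENCODE gene begins upstream of it, at 55578123. No such letters were in the windows of *Psme2* (ratio 1.44), nor in those of *Psmb8* (7.35) and *Psmb9* (5.53). For *Psmb10* (2.45) no match was found either, but the count of windows above covers members only. Of the other letters searched, the *Psmb8* window held TTCNNNGAA, at -97 to -89 from the start site, and the *Psmb9* window held CCAAT.

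The windows of these letters are shown for *Psme1* and *Psmg4*, the members with the largest ratios at 10 FPKM or more, and for *Psmb4*, which held them across the start site at a ratio of 1.26, with GAAANNGAA or its reverse complement in capitals. The *Psme1* window is chr14:55578494-55578523 on the plus strand, the *Psmg4* window chr13:34162969-34162998 on the plus strand and the *Psmb4* window chr3:94886942-94886971 on the minus strand.
Psme1: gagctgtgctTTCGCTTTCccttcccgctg
Psmg4: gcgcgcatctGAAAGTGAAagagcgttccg
Psmb4: aaaggaccacTTCCGTTTCcggtgacgcta

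TGACNNNGC was held by members with ratios on both sides of 1, namely *Psmb5* (1.16), *Psmb6* (1.07), *Psmd9* (1.06), *Psmd12* (0.95), *Psmc6* (0.77) and *Psme4* (0.66). Its windows, with the letters in capitals, are shown for the catalytic genes *Psmb5* (chr14:54618023-54618115, minus strand) and *Psmb6* (chr11:70525237-70525356, plus strand), whose sites are exchanged in the immunoproteasome.
Psmb5: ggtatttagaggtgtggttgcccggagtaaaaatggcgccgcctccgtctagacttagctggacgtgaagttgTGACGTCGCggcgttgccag
Psmb6: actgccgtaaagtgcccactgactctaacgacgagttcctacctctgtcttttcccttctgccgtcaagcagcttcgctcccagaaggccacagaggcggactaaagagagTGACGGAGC

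A match is a run of letters and not a measured site. CpG dinucleotides, the substrate of DNMT1, numbered 4 to 41 in the members' windows, with a median of 19, beside a median of 7 for all genes and 22 for genes at 10 FPKM or more. The lowest was *Psmb11*, the thymic form that was nearly silent in both libraries. *Psma7* had the most, 41, at a ratio of 1.09, *Psmg4* had 16 and *Psme1* 19. *Psme2*, averaged over its start sites, had 11.5 and *Psmb4* 12. Methylation of these windows was not analysed here.

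The members lie on 16 chromosomes, with the most, 8, on chromosome 11. *Psme1* (chr14:55578123-55581529, plus strand) and *Psme2* (chr14:55587441-55591113, minus strand) are 5911 bases apart, and *Psmg4* lies at chr13:34162964-34178173 on the plus strand (GENCODE M21, GRCm38). The library kit kept no strand, so reads from overlapping genes on opposite strands cannot be told apart. Exons of *Psme1* share 14 bases with *Emc9* on the other strand, which was at 7.21 and 12.32 FPKM, and exons of *Psmb9* share 212 bases with *Tap1*. *Psmb7* shares 405 exon bases with *Nek6*, at 3.62 and 7.12 FPKM. For *Psmg4* and *Psme4* no overlapping exon of another gene was found. Transcripts of 8 members had a copy elsewhere, at 95% identity or more over 50% or more of their length, mostly processed pseudogenes, so that their values are less certain (*Psma4*, *Psma5*, *Psmb3*, *Psmb5*, *Psmc1*, *Psmd2*, *Psmd11* and *Psme2*). Among these, *Psme2* matches *Psme2b* at 99.4% over 82.5% of its transcript, and *Psme2b* was listed at 0 and 0.06 FPKM.

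The number of transcript variants listed per gene was the same in both libraries for 41 of 45 members. *Psme1* had 4 variants in *Dnmt1*-WT and 2 in *Dnmt1*-KO and *Psmg3* had 2 and 1, while *Psmc2* and *Psmg2* each had 2 and 3. Of genes at 10 FPKM or more, 10.3% had fewer variants in *Dnmt1*-KO and 9.78% had more. *Psmg4*, with the largest ratio at this level, had 2 variants in both libraries.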

How the data were processed

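RNA was taken from jejunal tunica muscularis at P15, and libraries were made with a TruSeq RNA kit. The authors deposited FPKM per gene for 1 *Dnmt1*-WT and 1 *Dnmt1*-KO library, rounded to 2 decimals, a count of transcript variants per gene and library, and a ratio of their own. The submitters' processing notes name TopHat 1.4.1, Cufflinks 2.0.2 and build mm10. How the RNA of the mice was combined is not given in the sources used here. The authors' ratio column holds their own comparison and was not used.

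Samples were grouped by title and genotype label. Plain FPKM ratios were computed with no value added (Python 3.11.15, pandas 2.3.3, numpy 2.4.6, scipy 1.17.1), over genes above 0 in both libraries, and ratio counting was tested on simulated data. With 1 library per genotype there was no test, interval or p-value. The study's supplement gives more mapped reads for *Dnmt1*-WT than for *Dnmt1*-KO. The deposited FPKM hold no read numbers, so no counting error per gene was computed, and low values are least certain. Transcript length and GC content came from the GENCODE M21 coding transcript with the longest coding sequence, copies from BLAST 2.17.0 and promoter windows from RefSeq. Centring used medians of 10 equal bins of genes at 1 FPKM or more in both libraries. All members were named, with genes of the lists. The members and lists were chosen with earlier results of these data known. Alternatives were other scalings, values of 0.1 or 1 FPKM added, filters and other fold thresholds. A few genes of the comparison lists are not reported here.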

Additional observations from a re-analysis of the deposited data

How the results depend on the processing

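The members' median log2 ratio was 0.054 and turned to -0.047 with the libraries scaled to the same sum of FPKM, which shifted all log2 ratios by 0.10, to -0.041 by that sum without small RNA genes and to -0.0018 by a trimmed mean of log2 ratios. It stayed above 0 under the other alternatives. By sum of FPKM, the 20S core ratio went from 1.10 to 1.02 and the mean ratio of *Psme1* and *Psme2* from 1.58 to 1.48. That mean was 1.37 when centred on transcript length. Members at a ratio of at least 1.5 numbered 3, and 5 at a threshold of 5/4 (*Psmb4* and *Psme2* added). They numbered 2 with 1 FPKM added, where *Psma8* went from 2.33 to 1.23, with a filter of 1 or 10 FPKM, which leaves out *Psma8*, and at a threshold of 2, which *Psme1* does not reach. Members at or under 1/1.5 numbered 1, *Psme4*, and 5 at a threshold of 5/4 (*Psmc6*, *Psmd5*, *Psmg1* and *Psmg2* added). *Psme4* was no longer counted, leaving 0, with the median ratio set to 0, by upper quartile, with 1 FPKM added, centred on GC content and at a threshold of 2. Centred on length, *Psmg2* alone was counted in its place. The immunoproteasome over constitutive ratio was 4.32 as a geometric mean of the 3 sites, against 3.19 from sums.

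Of the 45 ratios of single members, 30 moved by 0.1 or more on the log2 scale by centring on length and 23 by centring on GC content, and 0 past 1.5 changed direction. The sum of FPKM shifts all by the same amount, just over that tolerance. The centrings, and the sum of FPKM without small RNA genes, were added after seeing the data. No paired analysis was possible because there is 1 library per genotype and the labels carry no replicate number. For the same reason no library could be left out, and the spread between mice remains unknown.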
